A study of Bos taurus with 48 samples.

Results

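The genes described here are the proteoglycans and glycoproteins of the muscle matrix, with lysyl oxidase: DCN, BGN, LUM, FMOD, OGN, SPARC, POSTN, TNC, FN1 and LOX. They were chosen by name, as probes whose gene symbol, or whose symbol in parentheses in the probe description, equals one of the 10. All 10 were present, on 11 of the 21475 probes of the bovine array, and all 11 probes passed the filter on dim signals that left 13943 of 19811 genes to be tested. DCN has 2 probes and each of the others has 1. TNC was found through its description, since the array lists its probe under a locus number.

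RNA came from longissimus muscle of 35 cattle and was hybridised to 48 2-colour arrays, which give 96 channels and 26 conditions. Piedmontese × Hereford animals were set against Wagyu × Hereford animals at 60, 135 and 195 days of gestation, at birth, and at 3, 7, 12, 20, 25 and 30 months of age. Adult Belmont Red cattle on a restricted diet, called a weight loss diet in the labels, were set against cattle on a growth diet at diet times 0, 1 and 2. The authors describe these times as part of an experiment of nutritional deprivation followed by re-alimentation. The labels do not say which times fell after feed was restored, and the arm is called restricted at all of them here. The 12 prenatal animals (6 of each cross) and the 6 newborn animals (3 of each) were different animals. Of the 9 post-natal animals (5 Piedmontese and 4 Wagyu crosses) 8 were sampled at 5 or 6 ages and 1, GP273, at 7 months only, and the diet arms held 4 and 4 animals at time 0, 3 restricted and 4 growth at time 1, and 2 and 2 at time 2. The labels do not say whether GP041A and GP041B, 2 of the prenatal Piedmontese crosses (195 days), are 1 animal or 2; they are counted as 2 here, and results that change with them as 1 are given. The 60-day stage is 1 animal of each cross, measured on 3 arrays. 1 animal stood apart before any comparison: GP672, a 135-day Piedmontese cross, had a mean log2 level of 9.99 over 7 muscle fibre markers (ACTA1 and CKM among them), against 13.20 to 15.99 in the other 11 prenatal animals, and of 7.79 over 4 tendon markers, against 9.15 to 12.16. Its mean over 6 adipocyte markers (ADIPOQ and FABP4 among them) was 13.67, against 7.36 to 9.69. Results that rest on it are given without it too. The samples are of whole muscle, in which fewer cells of a type and less RNA per cell cannot be told apart.

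Muscle fibres lie in a matrix of collagen fibrils that fibroblasts make. Small leucine-rich proteoglycans (DCN, BGN, LUM, FMOD and OGN) bind to the fibrils and set their spacing and width, and DCN and BGN also bind growth factors such as TGF-beta. SPARC, POSTN and TNC are matricellular glycoproteins, which change how cells hold to the matrix rather than bear load, and are known for high levels in growing and healing tissue. FN1 (fibronectin) is the adhesive scaffold on which collagen is laid down, and LOX (lysyl oxidase) makes the cross-links of collagen and elastin.

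The array reads each gene through a probe of 60 bases, of which the first 30 are given for the genes on which the results turn: both DCN probes, which did not respond alike, POSTN, TNC, FN1 and LUM. The sequences are those in the array files, 5′ to 3′.
DCN, probe A_73_104758: tgcggttgacaatggctctttggccaacac
DCN, probe A_73_111861: cccctcctcctttccacacctgcaaactct
LUM, probe A_73_100839: atggatgtttacagtcctgcagcaaattat
POSTN, probe A_73_118890: gccaattattaaaaaatacaccaagatcat
TNC, probe A_73_108252: taaactaaggatttttaaagagaccttcct
FN1, probe A_73_101130: tggttggtgattattttttatactgtatgt
The longest run of bases that any 2 of the 11 probes shared was 11, between the second DCN probe and the SPARC probe. The probes of 8 genes were well above background in all 96 channels. POSTN was above it in 60 channels (all 18 prenatal, 2 of 6 at birth, 29 of 48 post-natal and 11 of 24 diet channels), and OGN in 45 (all 18 prenatal, 2 of 6 at birth, 13 of 48 post-natal and 12 of 24 diet channels). No member was saturated in any channel. Levels are normalized log2 intensities and are compared between samples of one gene, never between genes.

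All 10 genes were lower in post-natal than in prenatal muscle, and the differences ran from a log2 difference of -0.94 ± 0.10 (SE) for DCN to -5.04 ± 0.43 for POSTN. The comparison asks how muscle after birth differs from fetal muscle, with 12 prenatal and 9 post-natal animals, 1 value per animal. Each of the 10 passed the test (adjusted p at most 3.4e-05 in limma, adjusted over all 13943 genes), while 36.4% of all genes were called lower. The median log2 difference was -2.36 over the 10 genes and 0.03 over all genes. In 8 of the 10 every post-natal animal lay below every prenatal one, which held for 20% of all genes. The exceptions were FMOD and TNC. All 10 were also called without GP672.

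**Figure D1:**
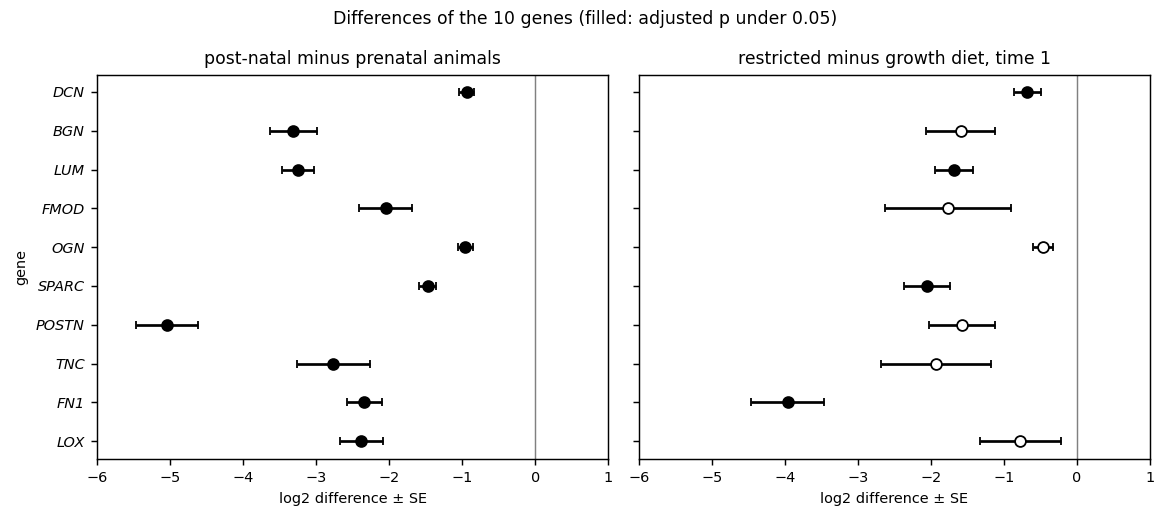
Log2 differences (x axis, ± SE) of the 10 genes between post-natal and prenatal animals (left; 9 and 12 animals) and between restricted and growth diet at diet time 1 (right; 3 and 4 animals); filled points passed an adjusted p of 0.05. All 10 points on the left are filled, with POSTN lowest at -5.04, and 4 are filled on the right, with FN1 lowest at -3.96.

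Among the small leucine-rich proteoglycans, BGN (biglycan) and LUM (lumican) fell most. BGN lay between 13.39 and 16.20 (median 14.95) in the prenatal animals and between 10.78 and 12.09 (median 11.29) in the post-natal ones, a log2 difference of -3.31 ± 0.33 (adjusted p = 6.3e-09). LUM lay between 13.14 and 15.06 (median 14.09) before birth and between 10.44 and 11.22 (median 10.82) after it, a difference of -3.25 ± 0.23 (adjusted p = 2.2e-11). The groups were apart in both genes.

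FMOD (fibromodulin), which guides fibril growth in tendon and fascia, spread more widely. Its prenatal animals ranged from 12.36 to 14.93 (median 13.44) and its post-natal animals from 10.33 to 13.30 (median 11.33), so that the groups overlapped; the difference was -2.05 ± 0.37 (adjusted p = 3.0e-05). DCN (decorin) differed by less than 2-fold, from a prenatal median of 12.55 (12.11 to 12.88) to a post-natal median of 11.52 (11.30 to 11.97). OGN (osteoglycin) went from a median of 7.95 (7.59 to 8.56) to 7.06 (6.95 to 7.12), and most post-natal channels were not above background, so its difference of -0.96 ± 0.10 (adjusted p = 2.9e-08) reaches down to background only.

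The matricellular glycoproteins held both the widest and one of the narrower differences. POSTN (periostin) lay between 10.72 and 14.16 (median 13.08) in the prenatal animals and between 7.32 and 8.05 (median 7.56) in the post-natal ones. The lowest prenatal animal was thus above the highest post-natal one by more than the whole post-natal range. TNC (tenascin-C), abundant in developing tendon, lay between 9.59 and 14.33 (median 11.54) before birth and between 7.91 and 10.06 (median 8.63) after it, and the groups overlapped (-2.77 ± 0.50, adjusted p = 3.4e-05). SPARC (osteonectin, a collagen-binding protein) lay between 16.44 and 17.22 (median 17.03) before birth and between 15.13 and 15.94 (median 15.38) after it (-1.48 ± 0.11, adjusted p = 1.0e-10).

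FN1 and LOX, the scaffold and the cross-linking enzyme, fell by about the same amount. FN1 went from 14.10 to 16.24 (median 15.02) in the prenatal animals to 12.07 to 13.31 (median 12.76) in the post-natal ones, a difference of -2.34 ± 0.24 (adjusted p = 1.1e-08). LOX went from 10.49 to 13.01 (median 11.88) to 8.85 to 10.10 (median 9.34), a difference of -2.39 ± 0.29 (adjusted p = 1.9e-07). Neither gene's groups overlapped.

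Prenatal and post-natal arrays share no slide, so each slide holds 1 of the 2 stages and stage cannot be told apart from slide. With the slide as a random block, which cannot separate the 2, all 10 genes were still called. Levels of other cell types moved too. The mean log2 level of 10 fibroblast markers ranged from 11.37 to 12.38 in the prenatal animals and from 10.49 to 11.87 at the post-natal ages, and 8 of the 10 were called lower and 1 higher. The mean of 7 muscle fibre markers ranged from 9.99 to 15.99 before birth and from 15.96 to 16.72 after it, with 3 called higher and 0 lower, and that of 5 proliferation markers from 9.02 to 10.58 and from 6.97 to 8.36, all 5 called lower. Of these 5, CCNB1, CCNB2 and CDC20 were well above background in no more than 8, 24 and 21 of 48 post-natal channels. Of 9 cartilage markers 4 were tested, all lower after birth. The mean of 4 tendon markers ranged from 7.79 (GP672) to 12.16 before birth and from 7.99 to 11.59 after it, with 2 called lower, and that of 7 endothelial markers from 9.74 to 11.10 and from 9.32 to 10.39, with 5 called lower and 1 higher. The mean of 6 adipocyte markers ranged from 7.36 to 13.67 (GP672) and from 8.77 to 13.62, with 2 called higher, and that of 6 macrophage markers from 8.47 to 9.11 and from 8.30 to 9.92, with 1 called higher and 2 lower. Their part in the differences of the 10 genes was not tested.

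**Figure D2:**
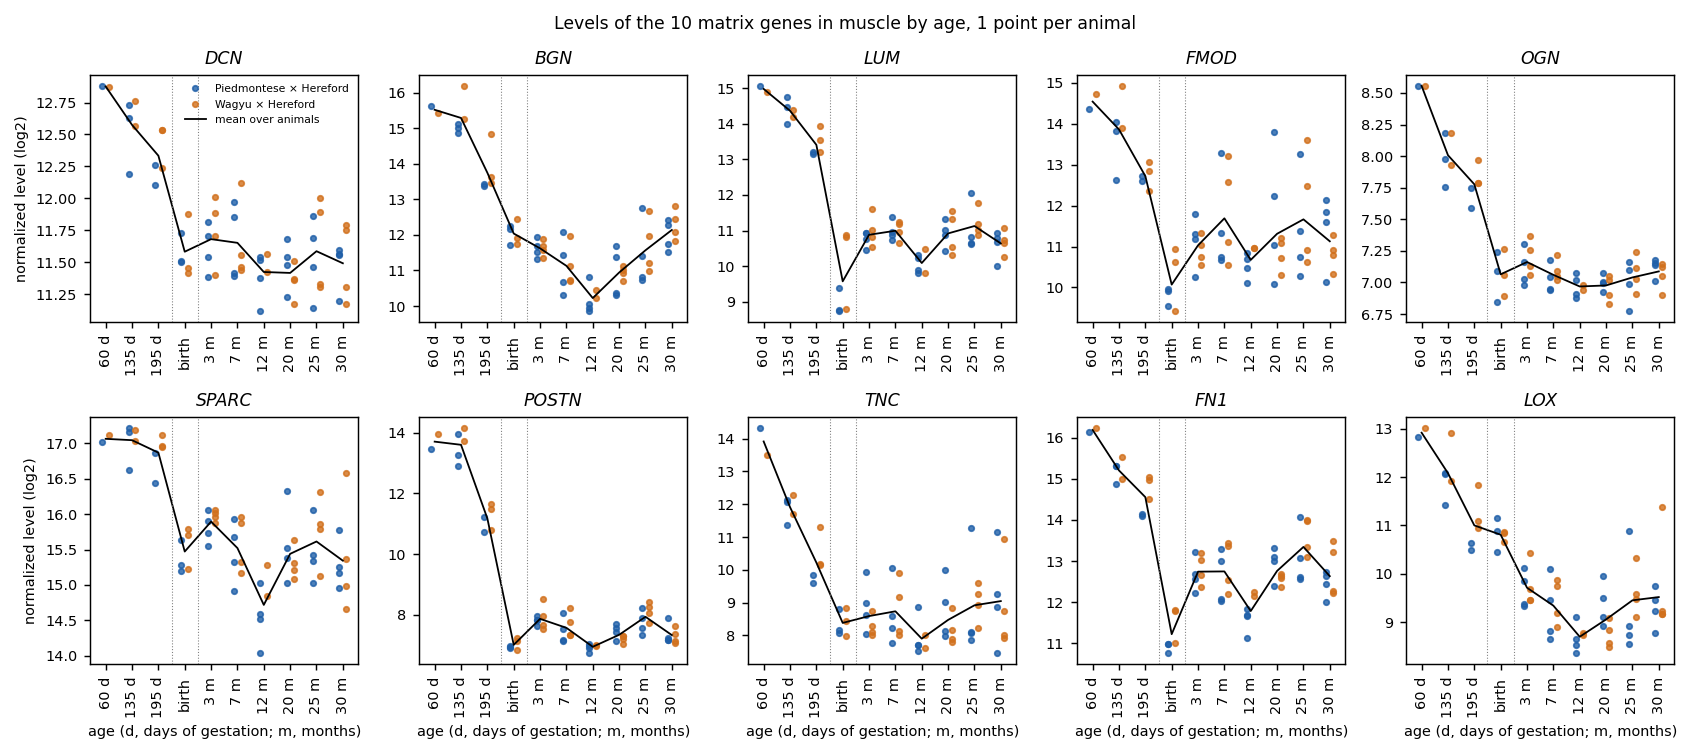
Normalized log2 level (y axis) of each gene against age (x axis; d, days of gestation, m, months after birth), with 1 point per animal coloured by cross and a line through the means over animals. The mean was highest at 60 days (2 animals) in all 10 genes, though close to that at 135 days in SPARC, POSTN and BGN. The drop from 195 days to birth is seen in all but LOX.

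The fall was not spread evenly over development. In all 10 genes the highest mean of the 10 ages was that at 60 days of gestation, a stage of 2 animals. It was close to the 135-day mean in SPARC (17.066 against 17.046), POSTN (13.708 against 13.604) and BGN (15.524 against 15.295). The lowest mean was at birth for LUM, FMOD and FN1, at 12 months for BGN, SPARC, POSTN, LOX, TNC and OGN, and at 20 months for DCN. DCN is given here as the mean of its 2 probes. Its second probe alone was highest at 195 days (10.51, against 10.38 at 60 days) and lowest at 30 months (9.49). Between highest and lowest age the level differed 109-fold for POSTN, 64.7-fold for TNC, 42.1-fold for LUM, 39.4-fold for BGN, 31.5-fold for FN1, 22.2-fold for FMOD and 18.6-fold for LOX, but only 5.09-fold for SPARC, 3.00-fold for OGN and 2.75-fold for DCN. The lowest means of POSTN and OGN lie near background, so their folds run down to background only.

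Of the 10 genes TNC had the largest difference between 60 and 135 days. It stood at 14.33 and 13.50 in the Piedmontese and the Wagyu cross at 60 days, and at 12.07, 12.13 and 11.37 in the 3 Piedmontese and 12.29 and 11.71 in the 2 Wagyu crosses at 135 days. The 2 ages were apart, with a log2 difference of -2.002 ± 0.378 (adjusted p = 0.0024). From 60 to 135 days TNC, FN1 (-0.99 ± 0.30, adjusted p = 0.048) and OGN (-0.55 ± 0.14, adjusted p = 0.017) were called lower, 3 of 10 against 5.15% of all genes. The 60-day stage is only 2 animals: without the Piedmontese one, GP663, 0 members were called, without the Wagyu one, GW911, 1 was, and 9 single animals each ended the call of FN1 when left out.

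POSTN and BGN fell in mid-gestation. POSTN was 13.96, 13.26 and 12.90 in the Piedmontese and 14.16 and 13.73 in the Wagyu crosses at 135 days, against 10.72 and 11.23 in the Piedmontese and 11.64, 11.47 and 10.81 in the Wagyu crosses at 195 days. The ages did not overlap, and the difference was -2.43 ± 0.22 (adjusted p = 2.9e-06); from 60 to 135 days POSTN had differed by -0.10 ± 0.29. BGN was 15.02, 14.88 and 15.11 in the Piedmontese and 16.20 and 15.26 in the Wagyu crosses at 135 days. At 195 days it was 13.44 and 13.39 in the Piedmontese and 13.47, 14.85 and 13.62 in the Wagyu crosses, with GW067 well above the others and just below the lowest 135-day animal (-1.54 ± 0.28, adjusted p = 0.0012). TNC (-1.69 ± 0.29), FMOD (-1.14 ± 0.34) and LOX (-1.08 ± 0.25) were called lower as well, which makes 5 of 10 against 9.1% of all genes. The 3 prenatal stages lie on the same slides, and with the slide as a fixed block 6 members were called, FN1 being the one added. That fit called 3137 of all 13943 genes in either direction, in place of 2544. With GP041A and GP041B counted as 1 animal, 4 members were called, FMOD being lost (adjusted p = 0.061). Without GP672 it was the same number as with it, 3 from 60 to 135 days and 5 from 135 to 195 days.

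The step from 195 days to birth brought 9 of the 10 genes down, against 29.9% of all genes. POSTN dropped by 4.17 ± 0.21 on the log2 scale (adjusted p = 8.1e-11) to between 6.84 and 7.24 (median 6.95) in the 6 newborn animals. It was above background in only 2 of 6 channels at birth, so this drop runs down to background. LUM dropped by 3.83 ± 0.37 (adjusted p = 1.2e-07): the 3 newborn Piedmontese crosses stood at 8.75, 8.78 and 9.40, and the 3 Wagyu crosses at 10.83, 8.81 and 10.89. FN1 dropped by 3.34 ± 0.22 (adjusted p = 1.4e-09), and the same 2 Wagyu crosses, GW071 and GW175, were its highest newborns at 11.78 and 11.81, against 10.76 to 10.99 in the other 4. These 2 animals were also the highest in FMOD. All newborns lay below all 195-day animals in these 4 genes.

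The remaining falls to birth were smaller: FMOD -2.65 ± 0.33, TNC -1.84 ± 0.27, BGN -1.71 ± 0.27, SPARC -1.40 ± 0.15, DCN -0.75 ± 0.12 and OGN -0.71 ± 0.10 (above background in 2 of 6 channels at birth too). LOX was the exception, with 10.49 to 11.84 (median 10.94) at 195 days and 10.44 to 11.16 (median 10.86) at birth, a difference of -0.19 ± 0.24 that did not pass the test (adjusted p = 0.50).

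**Figure D3:**
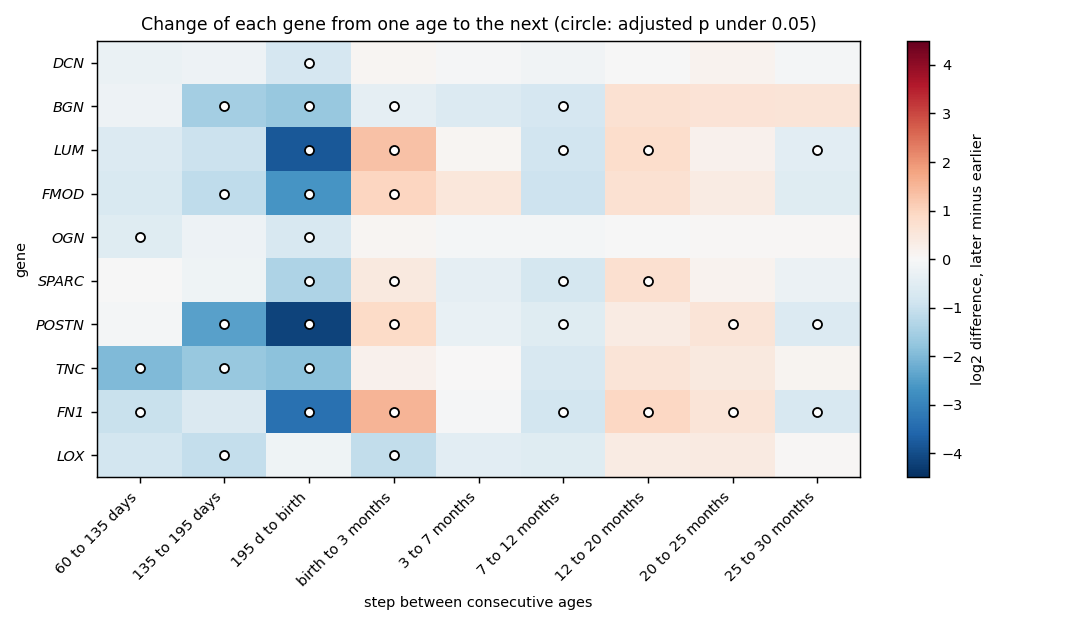
Colour gives the log2 difference, later minus earlier, of each gene (rows) over each step between consecutive ages (columns), and an open circle marks an adjusted p under 0.05. The column from 195 days to birth holds 9 circles in blue (lower), and the next column, birth to 3 months, is red (higher) for LUM, FMOD, POSTN, FN1 and SPARC (whose sign turned with median centring) and blue for BGN and LOX.

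From birth to 3 months the genes parted. FN1 (1.52 ± 0.20, adjusted p = 3.3e-05), LUM (1.31 ± 0.34, adjusted p = 0.0062), FMOD (0.96 ± 0.26, adjusted p = 0.0078), POSTN (0.86 ± 0.13, adjusted p = 0.00012) and SPARC (0.42 ± 0.12, adjusted p = 0.0078; -0.051 with each dye channel centred on its median) rose. The rise of POSTN starts from a birth level mostly at background. These 5 of 10 stand against 23% of all genes called higher. LOX (-1.09 ± 0.17, adjusted p = 0.00013) and BGN (-0.42 ± 0.13, adjusted p = 0.018) fell, 2 of 10 against 23.3% called lower. FN1 stood between 12.22 and 13.23 (median 12.66) in the 8 animals at 3 months, above all 6 newborns (10.76 to 11.81), and LOX stood between 9.33 and 10.43 (median 9.57), below all of them (10.44 to 11.16). Birth and 3-month arrays share no slide. With that median centring in place of loess and quantile scaling, only 3 of the 10 were called, and 1915 of all 13943 genes.

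Within the 9 post-natal animals, 7 of the 10 genes differed between the 6 ages (F-test of limma with the animal as a block), which is close to the 71.7% of all genes that did. They were BGN, LUM, SPARC, POSTN, FN1, LOX and OGN, while DCN (adjusted p = 0.17), FMOD (0.24) and TNC (0.18) were not called. LOX was called in only 5 and OGN in 4 of the 9 fits that left out 1 animal. The lowest post-natal point of 9 genes was 12 months and that of DCN 20 months. BGN went through the deepest trough. It lay between 11.33 and 11.93 (median 11.64) at 3 months, between 9.87 and 10.82 (median 10.14) at 12 months and between 11.51 and 12.82 (median 12.17) at 30 months, so that the 12-month animals lay below all animals of the other 2 ages.

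Step by step, none of the 10 was called from 3 to 7 months, where 19.4% of all genes were and 3 members had an unadjusted p under 0.05 (BGN, SPARC and POSTN, all below 0). Without GP201 1 was called, and without GW245 2. From 7 to 12 months BGN (-0.75 ± 0.26), LUM (-0.85 ± 0.20), SPARC (-0.80 ± 0.21), POSTN (-0.55 ± 0.16) and FN1 (-0.84 ± 0.22) fell, 5 of 10 against 6.58% of all genes called lower. Without GP201 only 2 were called, and without GW179 3. Of the 9 fits that left out 1 animal, BGN was called in 3, POSTN in 7, SPARC in 8, and LUM and FN1 in all 9. From 12 to 20 months FN1 (0.93 ± 0.21), LUM (0.79 ± 0.19) and SPARC (0.73 ± 0.20) rose, 3 of 10 against 7.27%; without GW245 it was 5. From 20 to 25 months FN1 (0.58 ± 0.19, but -0.14 with median centring) and POSTN (0.59 ± 0.14) rose, 2 of 10 against 6.7%, and 1 was called without GP201, GW169 or GW245. From 25 to 30 months FN1 (-0.71 ± 0.19, but 0.37 with median centring), LUM (-0.49 ± 0.17, but 0.47) and POSTN (-0.60 ± 0.14) fell, 3 of 10 against 11.7%. In that step LUM was called in only 5 of the 9 fits that left out 1 animal, FN1 and POSTN in all 9.

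The small post-natal steps depend on how the arrays were scaled. With median centring, 0 members were called in the steps from 7 to 25 months, where 27, 36 and 86 of all 13943 genes were. From 25 to 30 months 5 members and 10004 of all genes were called, and over all 6 ages 2 members and 4689 of all genes. That scaling put the median of all genes at 0.54 from 25 to 30 months, in place of 0.00865, and at -0.341 from 20 to 25 months, in place of -0.0201. The 3-, 7-, 12- and 20-month arrays lie together on 4 slides and the 25- and 30-month arrays on 2 others, so the step from 20 to 25 months cannot be told apart from slide. Over the ages of 3 to 20 months alone, 7 members differed between ages, as many as over all 6, where 71.7% of all genes did. The share of all genes over 3 to 20 months is not given here, so this count does not set the members apart.

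OGN was not well above background in any channel at 20 or 25 months, so no fold is given for it between these ages. POSTN was above background in all 8 channels at 3 months but in only 2 of 8 at 12 and at 20 months, 6 of 8 at 25 and 4 of 8 at 30 months. Both genes are therefore bounded below after birth, unlike the other 8.

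The Piedmontese is known for muscle mass and the Wagyu for marbling, and the crosses were compared before, at and after birth. None of the 10 genes was called in any of these comparisons. Before birth all 10 had a difference below 0 (Piedmontese minus Wagyu crosses), with a median log2 difference of -0.30 and the largest in LOX (-0.55 ± 0.20), BGN (-0.49 ± 0.23), FMOD (-0.47 ± 0.26) and POSTN (-0.46 ± 0.19). There, 3 of the 10 had an unadjusted p under 0.05, all adjusted p were at least 0.957, and 0% of all genes were called (624 of 13943 had an unadjusted p under 0.05). In the 12 fits that left out 1 animal, GP672 among them, no member was called. Over these fits LUM ran from -0.17 to 0.0085 and FMOD from -0.61 to -0.25, and all members but LUM stayed below 0. At birth LUM differed by -1.20 ± 0.55 (adjusted p = 0.76) and FN1 by -0.62 ± 0.24 (adjusted p = 0.74), and 0.00717% of all genes were called, while 1 member had an unadjusted p under 0.05; without the Wagyu cross GW146, 1 member was called. After birth the differences ran from -0.14 ± 0.21 (FN1) to 0.40 ± 0.43 (FMOD), again with 0% of genes called, and 0 members had an unadjusted p under 0.05. These tests do not show that the crosses are alike.

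FMOD and LOX differed most between animals at diet time 0, with an SD of 2.60 and 2.69 over the 4 restricted animals, followed by SPARC and TNC (1.82 each), FN1 (1.25) and BGN (1.17). FMOD was 15.53, 13.23, 15.33 and 13.05 in the growth animals (RG157, RG166, RG208, RG604) and 11.02, 15.54, 10.77 and 15.26 in the restricted animals (RL24, RL27, RL322, RL671). LOX was 12.91, 10.51, 12.81 and 10.82, and 9.09, 13.83, 8.73 and 13.28 in the same order, so RG157, RG208, RL27 and RL671 were high in both genes and the arms overlapped throughout. These 4 were also the highest animals in SPARC (16.93 to 18.16 against 14.18 to 15.60), TNC (12.09 to 12.88 against 8.68 to 11.35), FN1 (12.82 to 13.93 against 11.28 to 11.88) and BGN (12.97 to 13.33 against 11.14 to 11.63). The same 4 animals had the highest mean level of the 4 tested tendon markers outside the 10 genes (TNMD, THBS4, COMP and MKX), between 12.71 and 13.12 against 9.64 to 11.003 in the other 4. Of these markers TNMD, THBS4 and COMP were above background in most diet channels, and SCX, a defining tendon factor, was above it in 0 channels. Their part in the levels of these 6 genes was not tested.

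At time 0 none of the 10 was called, against 1.09% of all genes. The largest differences were FMOD (-1.14 ± 1.22), TNC (-1.03 ± 0.90) and LUM (0.90 ± 0.47). No member had an unadjusted p under 0.05.

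At time 1 all 10 genes had a difference below 0 (restricted minus growth diet), and FN1, SPARC, LUM and DCN passed the test, 4 of 10 against 7.41% of all genes called lower. FN1 was 9.79, 9.01 and 10.56 in the restricted animals RL24, RL27 and RL671. It was 13.52, 12.97, 13.59 and 14.92 in the growth animals RG157, RG166, RG208 and RG604. The arms were more than 2 log2 units apart, and the difference was -3.96 ± 0.50 (adjusted p = 0.0055), a 15.6-fold lower level.

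SPARC was 13.34, 14.14 and 14.56 on the restricted diet and 15.92, 15.77, 15.90 and 16.66 on the growth diet, a difference of -2.05 ± 0.32 (adjusted p = 0.0086). LUM was 10.27, 9.34 and 9.54 against 11.83, 11.19, 11.08 and 11.49, a difference of -1.68 ± 0.26 (adjusted p = 0.0089). DCN was 10.95, 10.77 and 11.12 against 11.51, 11.60, 11.34 and 12.05, a smaller difference of -0.68 ± 0.18 (adjusted p = 0.043). The arms did not overlap in any of these 4 genes. FN1, SPARC and LUM were called in all 7 fits that left out 1 animal, but DCN in only 1 of them.

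Of the members not called, BGN (-1.59 ± 0.47, adjusted p = 0.059), POSTN (-1.58 ± 0.45, adjusted p = 0.054) and OGN (-0.46 ± 0.14, adjusted p = 0.061) did not overlap between the arms either, which makes 7 of 10 genes with every restricted animal below every growth animal, against 14.9% of all genes. POSTN and OGN were not well above background in any restricted channel at time 1. With each restricted channel set no lower than its lowest probe well above background, POSTN was 2.56-fold and OGN 1.35-fold lower than the growth mean. A probe can lie above that floor without being well above background, so these folds are not strict bounds. OGN was well above background in 3 of 4 growth channels, POSTN in 4 of 4. With the 2 arms of an array as a replicate block, 7 members were called, BGN, POSTN and OGN being added. That fit called 2514 of all 13943 genes in either direction, in place of 2067. FMOD (-1.76 ± 0.86), TNC (-1.94 ± 0.76) and LOX (-0.78 ± 0.56) overlapped between the arms, and RG604 was the highest growth animal in each of the 3.

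**Figure D4:**
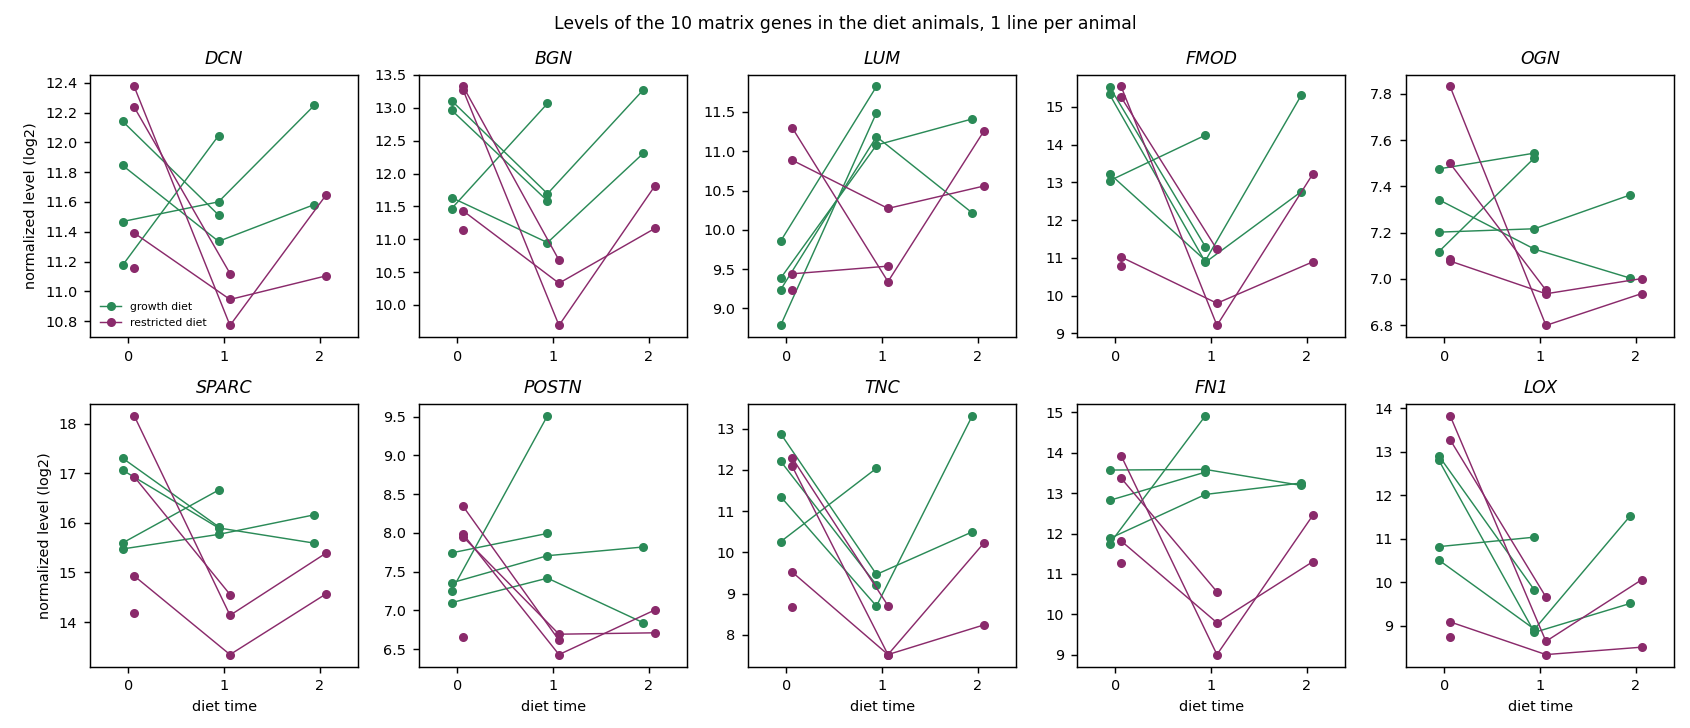
Normalized log2 level (y axis) of each gene at diet times 0, 1 and 2 (x axis), with the samples of 1 animal joined by a line (green, growth diet; purple, restricted diet). FN1 at time 1 lies between 9.01 and 10.56 in the 3 restricted animals and between 12.97 and 14.92 in the 4 growth animals, and LUM rises in all 4 growth animals from time 0 to 1.

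Followed within animals, the restricted arm fell in 7 of the 10 genes from time 0 to 1, against 6.49% of all genes called lower. These were FN1 (-3.25 ± 0.60), TNC (-3.38 ± 1.01), LOX (-3.19 ± 0.94), SPARC (-2.66 ± 0.56), BGN (-2.44 ± 0.55), POSTN (-1.51 ± 0.34) and DCN (-1.06 ± 0.29), with adjusted p from 0.0088 to 0.049. FMOD was not called, but under 8 alternative settings its difference ran from -4.03 to -3.65 and was called in 5. POSTN reached background at time 1. With the same floor, the mean of the 3 restricted animals at time 1 was 1.91-fold below that of the 4 at time 0. That fold is not paired within animals, since RL322 was measured at time 0 only, and it is not a strict bound either. At time 0 POSTN was well above background in 3 of 4 restricted channels. The changes of the restricted arm rest on 3 animals: without RL27 0 members were called, without RL671 2, and without the growth animal RG166 4. Over the same step the mean of the 4 tendon markers fell from 10.30 to 8.28 in RL24, from 12.88 to 8.15 in RL27 and from 12.96 to 9.24 in RL671. Among the growth animals it fell in RG157, RG166 and RG208 and rose in RG604. The part of tendon cells in these changes was not tested. In the growth arm 1 member was called, LUM, which rose by 2.08 ± 0.33 (adjusted p = 0.017), against 1.83% of all genes called higher. LUM went from 9.86 to 11.83 in RG157, from 9.24 to 11.19 in RG166, from 9.38 to 11.08 in RG208 and from 8.78 to 11.49 in RG604. It rose in each of the 4 animals, although the call was lost without RG166, RG208 or RG604. Each diet time lies on a slide of its own, so a change of 1 arm over time cannot be told apart from slide.

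The difference between the arms in that change does not have this limit, since both arms are on each slide. It was called for FN1 (-4.496 ± 0.80, adjusted p = 0.0092), LUM (-2.91 ± 0.50, adjusted p = 0.0083) and POSTN (-2.31 ± 0.45, adjusted p = 0.012), 3 of 10 against 6.63% of all genes called lower. FN1 changed by -3.25 in the restricted and by 1.24 in the growth arm, LUM by -0.83 and 2.08, and POSTN by -1.51 and 0.79, the former down to background only. FN1 and LUM were called in all 8 fits that left out 1 animal and POSTN in 7. DCN, BGN, SPARC, FMOD, LOX and TNC had a change below 0 in both arms. Among them the arms differed by -2.37 ± 0.74 in SPARC (adjusted p = 0.061), -1.97 ± 0.73 in BGN (adjusted p = 0.10), -1.02 ± 0.39 in DCN (adjusted p = 0.11), -1.42 ± 1.55 in FMOD, -1.08 ± 1.25 in LOX and -1.56 ± 1.34 in TNC, none of them called.

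Markers of other cell types moved with the arms at time 1. The mean level of 7 muscle fibre markers was 14.86 to 15.31 in the restricted and 16.56 to 17.65 in the growth animals, and 5 of the 7 were called lower. That of 10 fibroblast markers was 10.06 to 10.98 and 10.76 to 11.78, with 3 called lower, and that of 4 tendon markers was 8.15 to 9.24 and 9.21 to 12.70, with 0 called. The means of 7 endothelial markers (9.62 to 9.80 and 9.90 to 10.46, 3 called lower) and of 5 proliferation markers (6.82 to 7.05 and 7.44 to 7.92, 4 called lower) did not overlap between the arms, as in the muscle fibre markers. The proliferation markers CCNB1, CCNB2 and CDC20 were well above background in no more than 9, 10 and 7 of 24 diet channels, so that mean lies near background. The means of 6 adipocyte markers (8.55 to 9.21 and 8.87 to 10.62) and 6 macrophage markers (8.53 to 9.46 and 8.85 to 9.54) overlapped, with 0 called. Their part in the differences of the 10 genes was not tested.

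At time 2, with 2 animals per arm, none of the 10 was called, nor was any other gene (0%); 4 members had an unadjusted p under 0.05. FN1 was 11.30 and 12.45 in the restricted animals RL24 and RL27 and 13.25 and 13.19 in the growth animals RG166 and RG208, still apart (-1.34 ± 0.37). LUM was 10.56 and 11.26 against 10.21 and 11.41, with the arms overlapping (0.09 ± 0.44). From time 1 to 2 all 10 genes had a difference above 0 in the restricted arm, with a median of 1.03, but none was called, against 2.42% of all genes, and 2 had an unadjusted p under 0.05. None was called in the growth arm (0% of all genes) or in the difference between the arms (0.889%), where 0 and 1 had an unadjusted p under 0.05.

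The 2 DCN probes did not give the same size of change. Over the 26 conditions they correlated with r = 0.805, and their ranges were 2.75 and 1.48 on the log2 scale. From prenatal to post-natal muscle the first fell by 1.14 ± 0.17 and the second by 0.74 ± 0.11, and both passed the test. Before birth they parted. From 60 to 135 days the first gave -0.66 ± 0.19 (adjusted p = 0.039) and the second 0.05 ± 0.26 (adjusted p = 0.95). From 135 to 195 days the first gave -0.56 ± 0.15 (adjusted p = 0.014) and the second 0.08 ± 0.20 (adjusted p = 0.82). From birth to 3 months the first gave 0.42 ± 0.14 (adjusted p = 0.020) and the second -0.22 ± 0.18 (adjusted p = 0.32), and at diet time 1 only the second was called (-0.59 ± 0.11, adjusted p = 0.015, against -0.77 ± 0.28 and adjusted p = 0.10). The values of DCN elsewhere are the mean of both.

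Across the 26 conditions the 10 genes moved together. All 45 pairs had a Pearson correlation of condition means above 0, from 0.668 (LUM and LOX) to 0.961 (DCN and OGN), with a median of 0.874. Within the 8 prenatal and birth conditions the median was 0.948, within the 12 post-natal conditions 0.658, and within the 6 diet conditions 0.771. In the diet conditions 3 pairs were below 0, all with LUM: r = -0.415 with LOX, -0.104 with FMOD and -0.0426 with TNC. FMOD and TNC had r = 0.978 there. These are descriptions: conditions share animals, slides and the large step at birth.

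By the same measure the gene outside the 10 whose profile was most like each member was COL1A2, a chain of type I collagen, for SPARC (r = 0.981), LAMA4, a laminin chain of vessel basement membranes, for LUM (r = 0.982), and MRC2, a receptor that takes up collagen, for FN1 (r = 0.961). It was THBS3 for BGN (r = 0.972) and THBS2 for LOX (r = 0.972), both thrombospondins, CILP2 for FMOD (r = 0.971), CPE for DCN (r = 0.978), FAT1 for OGN (r = 0.983) and CCDC102A for POSTN (r = 0.99). TNC was most like an expressed sequence with no gene symbol (r = 0.964). Closest to the mean of the 10 standardised profiles were TMED3 (r = 0.985), CRTAP (0.981), FKBP10 (0.979), MARVELD1 (0.978) and FSTL1 (0.977). CRTAP and FKBP10 act in the folding and hydroxylation of collagen in the endoplasmic reticulum.

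Several members lie beside related genes in the bovine genome: KERA, LUM and DCN are consecutive genes, OGN is followed by OMD and ASPN, and FMOD by PRELP and OPTC. The neighbours did not all move with them. From prenatal to post-natal muscle KERA (keratocan, -3.11 ± 0.63) and ASPN (asporin, -3.45 ± 0.35) were called lower, as LUM and OGN were. OMD (-0.19 ± 0.09, adjusted p = 0.055) and PRELP (0.22 ± 0.20, adjusted p = 0.32) were not called, and OPTC fell by only 0.21 ± 0.07 on the log2 scale.

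Other genes of the matrix were taken from lists, and each list is given by its calls between prenatal and post-natal muscle. Of 11 tested fibrillar and fibril-associated collagens, 7 fell and 1 rose (median -2.33), from COL11A1 (-3.99 ± 0.67) to COL6A2 (0.62 ± 0.11). Of 17 enzymes of collagen processing and cross-linking, 14 fell and 2 rose (median -1.30), with SERPINH1, the collagen chaperone, at -2.44 ± 0.20 and PCOLCE2 at 1.65 ± 0.29. Of 20 matricellular and adhesive glycoproteins outside the 10, 13 fell and 2 rose (median -1.36), from SPP1 (osteopontin, -4.20 ± 0.69) to CCN1 (1.11 ± 0.26).

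Of 12 large and cell-surface proteoglycans, 8 fell and 2 rose (median -1.49), led by GPC3 (-4.71 ± 0.14), a glypican of growing tissue, while SRGN, the proteoglycan of blood-cell granules, rose by 1.84 ± 0.32. Of 10 small leucine-rich proteoglycans outside the 10 genes, 4 fell, 2 rose and 4 were not called (median -0.08), from ASPN to CHAD (1.10 ± 0.24). Of 15 elastic fibre and microfibril proteins, 10 fell and 1 rose (median -0.75), from MFAP2 (-3.50 ± 0.23) to LTBP3 (0.35 ± 0.10).

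Of 15 enzymes that build glycosaminoglycan chains, the sugar chains of proteoglycans, 10 fell and 3 rose (median -0.93), with CHPF at -2.56 ± 0.12 and CSGALNACT2 at 1.00 ± 0.07. Of 14 matrix proteases and their inhibitors, 9 fell and 2 rose (median -0.97), from RECK (-2.29 ± 0.14) to TIMP4 (1.11 ± 0.30). Matrix receptors (6 of 12 lower, 1 higher, from ITGA11 at -1.19 ± 0.20 to ITGA5 at 0.20 ± 0.09) and TGF-beta ligands, receptors and signal proteins (7 of 12 lower, 2 higher, from TGFB3 at -1.37 ± 0.12 to TGFB1 at 0.31 ± 0.06) had medians of -0.45 and -0.52. Over all genes the median was 0.03 and 36.4% were called lower.

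At diet time 1 the collagens and their enzymes were the lists with most calls. Of the 11 collagens 7 were lower on the restricted diet (median -1.63), and of the 17 collagen enzymes 9 were lower and 1 higher (median -0.58). Elastic fibre proteins (4 of 15 lower), matricellular glycoproteins outside the 10 (4 of 20 lower, 1 higher), proteases (3 of 14 lower), and large proteoglycans, receptors and TGF-beta proteins (1 of 12 lower each) had fewer. None of the 10 other small leucine-rich proteoglycans was called (median -0.54), and of the 15 chain-building enzymes 0 were lower and 1 was higher (median -0.17). The median over all genes was -0.00379 and 7.41% were called lower.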

How the data were processed

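RNA from longissimus muscle, labelled with Cy3 or Cy5, was hybridised to 48 2-colour Agilent bovine arrays. The deposited values are spot intensity and local background intensity of each dye, extracted by the authors with Agilent Feature Extraction (version 9.5.1 in the submitters' processing notes) and not normalized; between 49.9% and 76.4% of an array's spots were well above background, and the number of arrays limits the precision. The scanner files give the extraction's own processed intensity too, used as an alternative. A deposited table of log10 ratios of the same arrays was not used.

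Background was corrected by normexp (offset 50) in limma 3.58.1 (R 4.3.3). Arrays were normalized by loess within and Aquantile between arrays, control spots and outlier spots were left out, and spots were averaged per probe. A probe was kept if well above background in at least 24 of 96 channels (14954 probes), and 85 of these with no usable spot in some channel were left out. A dye effect per gene was removed, probes of a gene were averaged, and channels of an animal at a stage were averaged, so that the animal was the replicate. Probes were named through RefSeq (13906 by accession, gene number or symbol, 2591 by the symbol in the description), and 4978 kept the name in the files. The probe sequences are those of the array files; their place in the transcript was not determined here.

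Differences were tested two-sided with limma (lmFit, eBayes) and Benjamini-Hochberg adjustment at 0.05 over 13943 genes, with the animal as a block for post-natal ages and for changes over diet time. Errors are standard errors of the log2 difference. The method was tested on simulated data. The authors of the study fitted a mixed model to these arrays, whose values were not used.

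The members and gene lists were chosen with earlier results of these data known. The genes named are the 10 members, the gene most like each by correlation and the 5 most like their mean profile, and the largest rise and fall of each list; genes beside members in RefSeq's order, and marker genes, were named outside that rule after values were seen. Alternatives were plain background subtraction, processed signals, median centring, quantile scaling, other filters, the brightest probe, no dye correction, slide or array as a block, GP041A and GP041B as 1 animal, and each animal left out. Chosen after seeing the data were the ages of 3 to 20 months alone and prenatal animals without the 60-day stage.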

Additional observations from a re-analysis of the deposited data

Results flagged for a closer look

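In 120 groups of a member at one stage or diet arm, 7 had a highest animal set apart from the rest by Dixon's test, which chance gives in about 1 in 20 groups. They were BGN at 135 days (GW625, 16.201) and at 195 days (GW067, 14.851), FMOD on the growth diet at time 1 (RG604, 14.253), SPARC at 20 months (GP112, 16.334), POSTN at 3 months (GW212, 8.528), LOX at 30 months (GW179, 11.377) and TNC at 12 months (GP112, 8.8589). RG604 also had the highest mean of the 4 tendon markers among the growth animals at time 1, 12.697 against 9.2147 to 9.8151 in the other 3, and the part of these cells in its FMOD level was not tested.

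The change from diet time 0 to 1 differed between the arms, by the interaction in limma, in FN1 (log2 difference -4.496), LUM (-2.907) and POSTN (-2.306).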

How the results depend on the processing

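All 10 members were called lower after birth under every alternative run but the filter at 48 of 96 channels, which left OGN untested and 9 called. From 195 days to birth 9 were called, except 8 under that filter and 8 under median centring, where DCN was not called. Median centring changed most: it left 1 call from 60 to 135 days (as did background subtraction and the processed signals), 3 from birth to 3 months, 2 over post-natal ages, 0 from 7 to 12, 12 to 20 and 20 to 25 months, and gave 5 from 25 to 30 months. Under it the sign turned for SPARC from birth to 3 months (-0.051), FN1 from 20 to 25 (-0.14) and 25 to 30 months (0.37) and LUM from 25 to 30 months (0.47). The cause was not tested. With no filter on dim probes 4 members were called in restricted animals from time 0 to 1.

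Array numbers in the labels do not pair animals. With the array as a replicate block 7 members were called at diet time 1 in place of 4, while 2514 of all genes were called in place of 2067. No count of members changed in the other 5 comparisons of arms so fitted.

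Leaving out 1 animal gave 0 to 4 calls from 60 to 135 days, 4 to 7 from 135 to 195 days, 5 to 7 over post-natal ages, 0 to 2 from 3 to 7, 2 to 5 from 7 to 12, 3 to 5 from 12 to 20, 1 to 3 from 20 to 25 and 2 to 3 from 25 to 30 months. It gave 0 to 1 between crosses at birth, 3 to 5 between diets at time 1, 0 to 9 in restricted and 0 to 1 in growth animals from time 0 to 1, and 2 to 3 in the difference between arms.

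Counts over all genes also moved. Under median centring they went from 2544 to 512 (135 to 195 days), 6460 to 1915 (birth to 3 months), 10001 to 4689 (ages), 2706 to 29, 2169 to 27, 2417 to 36, 2184 to 86 and 3610 to 10004 (the 5 post-natal steps in order). Without GP663, 332 of 1432 were left from 60 to 135 days, and 2295 were called without GP672. Without RL27, 661 of 2067 were left at diet time 1, 186 of 2125 in restricted animals and 505 of 1823 in the difference; without RG208, 25 of 418 in growth animals. Between the crosses at birth, 52 in place of 1 were called without GW146. With the array block 1449 in place of 0 were called between crosses after birth, 211 in place of 0 between diets at time 2 and 0 in place of 152 at time 0. From time 1 to 2, 0 of 338 were left in restricted animals without RL27 and 1 of 124 in the difference without RG166.

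The share of calls that were higher moved under median centring from 49.9% to 38% (60 to 135 days; 61.6% with processed signals), 50.1% to 60.5% (135 to 195 days), 49.7% to 33.4% (birth to 3 months), 57.7% to 44.4% (7 to 12 months), 42.8% to 8.14% (20 to 25), 54.7% to 76.1% (25 to 30), 51.3% to 33.3% (diet time 0), 50% to 74.7% (diet time 1), 57.4% to 70.4% (restricted, time 0 to 1), 61% to 25.3% (growth), 49.3% to 79.3% (the difference) and 67.7% to 39.1% (the difference from time 1 to 2). Signal near background limits POSTN and OGN after birth.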
